A study of Homo sapiens with 2 samples.

Results

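Glycolysis splits glucose into pyruvate, lactate dehydrogenase and the pyruvate dehydrogenase complex decide what becomes of that pyruvate, and the pentose phosphate pathway branches off at glucose 6-phosphate to make NADPH and ribose. The transcripts of 31 genes of these pathways were followed through a map of RBMS3 contacts on RNA: 24 of the 31 carried at least 1 site, and are called bound here, and 7 carried none. The rule that names the genes is pathway membership and uses no measured value, but the list was drawn up with earlier results of these data known. A site belonged to a gene when it lay on the same strand inside the gene body of GENCODE release 44, which gave 103 of the 27706 sites in the list. Joined where they lay within 50 nt, these made 48 of the 16060 clusters of the whole list, 34 of them in 3′UTRs.

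The map came from CLIP-seq, in which ultraviolet light links a protein to the RNA it touches and the RNA held by the protein is sequenced. MDA-MB-231 cells, an established cell line from a human breast cancer of the triple-negative kind, carried RBMS3 with a FLAG tag on a lentiviral vector, so the protein mapped was an expressed, tagged copy and not the cell's own. There was 1 group with 2 biological replicates, both irradiated at 254 nm with 400 mJ/cm2, and the source label of replicate 2 gives another number for the line than its title does. The authors pooled the tags of both replicates before calling sites, so no value below has a replicate check, a site may rest on 1 replicate, and no control library was analysed here.

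RBMS3 belongs to a small family of single-stranded nucleic acid binding proteins with RNA recognition motifs, known to prefer stretches rich in A and U. The end of most mRNAs is set by a poly(A) signal, AATAAA or its variant ATTAAA in DNA letters, which the cleavage machinery reads shortly before the place where the transcript is cut and tailed. A crosslinked amino acid left on the RNA can make reverse transcriptase skip a base, and each listed site is a position where the authors called an excess of deletions, with the number of tags (unique reads) that cover it and the number that lack the base. Where the lost base lies in a run of the same letter, the list gives the lowest genome coordinate (all 87 member sites in runs), so the base within the run is not known.

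The sequences at the site with the most deletions showed 3 arrangements, and the examples below are taken from the members with the most deletions and from isozymes that were both bound. Each is 29 nt of hg38 written 5′ to 3′ on the strand of the transcript, with the listed base at position 15 and the poly(A) signal in capitals. In the first set the listed base is an A of the signal itself, or of the A run that leads into it, and GAPDH, the glyceraldehyde 3-phosphate dehydrogenase transcript, held more deletions than any other member.
GAPDH, chr12:6538334-6538362, plus strand: tgtcatgtaccatcAATAAAgtaccctgt
PGK1 first end, chrX:78126234-78126262, plus strand: tccattaagtaaacAATAAAagtgtccat
PFKM, chr12:48146067-48146095, plus strand: attgtaactacactAATAAAtgccaactg
PFKFB3, chr10:6235495-6235523, plus strand: gcagttgccagaccAATAAAatacctggt
PFKFB2, chr1:207077775-207077803, plus strand: tgtgtagaatgggtaAATAAAattgttga

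In the second set the listed base is a T, in a run of 2 to 4 T that stands before or after the signal. In LDHB and in no other of these windows the signal, which begins 15 nt before the deletion, is cut off by the left edge.
GPI, chr19:34402366-34402394, plus strand: tttctggaatgtacttttgcttcAATAAA
ENO1, chr1:8861024-8861052, minus strand: atccccggtggttttgtgctcaaAATAAA
PFKP, chr10:3136772-3136800, plus strand: gaattaATTAAAcatttgcctatgactcc
PGK1 second cluster, chrX:78126801-78126829, plus strand: atgctatgATTAAAtttacttatgtaact
PDHB, chr3:58427625-58427653, minus strand: ggAATAAAggaatttctaacatgactaat
LDHB, chr12:21635336-21635364, minus strand: ataaaattaactattgtagtgtgcttctg

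In the third set neither form of the signal lay within 25 nt of the deletion. The capitals in TKT mark the AUA motif, a 7-base pattern that begins with any base but C, then A or T, then ATA, then A or T, and ends in A.
TKT, chr3:53225656-53225684, minus strand: gagaggaggggtAAATATAtgttttgaga
HK1, chr10:69401853-69401881, plus strand: atgacctagtaaactttgtaccaattcaa
LDHA, chr11:18407773-18407801, plus strand: atctacatacaaacaatgcaaccaactat

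A site anywhere in the gene was found for 24 of 31 members, or 77.4% (95% Wilson interval 60.2 to 88.6%), against 37.6% of all 20046 protein-coding genes. A 3′UTR site was found for 23 members, or 74.2% (56.8 to 86.3%), against 31.8% of all protein-coding genes. A 3′UTR site with at least 50 deletions was found for 18 members, or 58.1% (40.8 to 73.6%), against 23.6%. Member sites in 3′UTRs also had more tags than those of other genes (medians of 12884.5 and 4919.5), the files hold no expression levels, and the part of transcript abundance in these shares was not tested. Intervals here and below cover counting error alone, and the members were not tested against other genes.

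By step of the pathway, a 3′UTR site was present in 4 of the 6 genes for hexose phosphates, 2 of the 3 that make and break fructose 2,6-bisphosphate, 7 of the 9 for the triose and lower steps, both lactate dehydrogenases, 3 of the 5 genes around pyruvate dehydrogenase and 5 of the 6 pentose phosphate genes. The triose and lower steps held 41 of the 88 member sites in 3′UTRs, and PGK1 by itself held 20. Across the 23 members the site with the most deletions, called the leading site from here on, had between 18 and 886 deletions (median 159) and between 27 and 52244 tags (median 4727). In the order of all 6371 genes by the deletions of their leading 3′UTR site, GAPDH was number 157, TKT 333, HK1 413 and PGK1 430, and no other member was among the first 500.

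**Figure D1:**
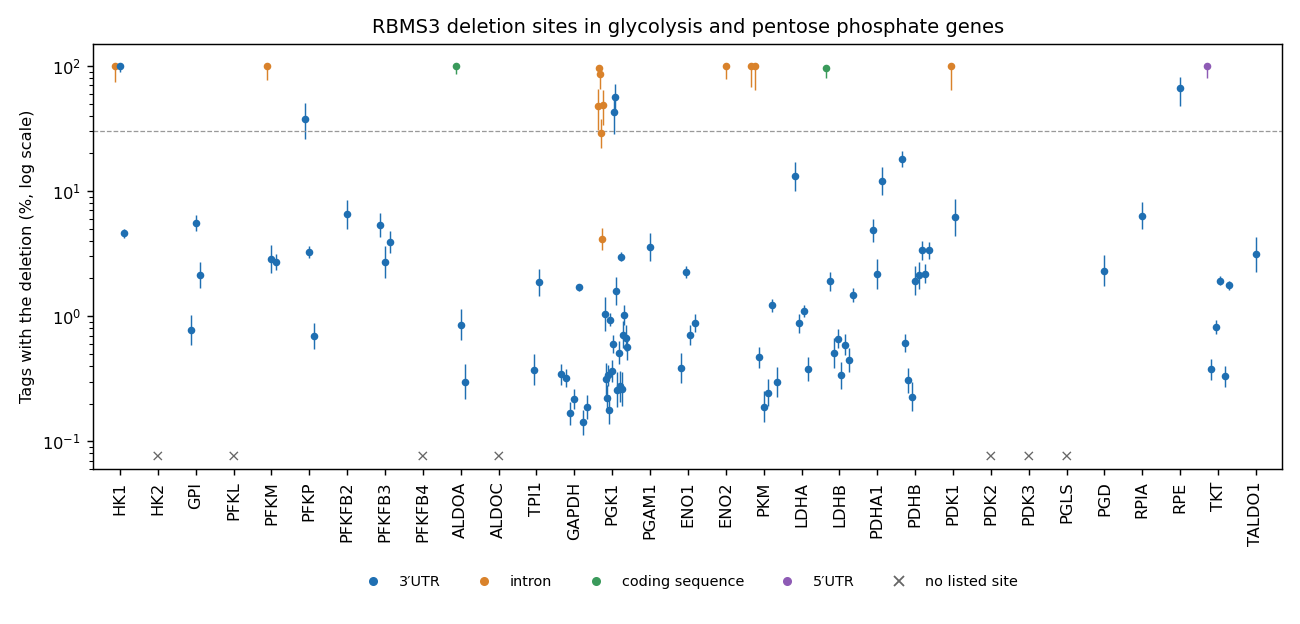
Percentage of tags that carry the deletion (log scale) at each of the 103 sites, by member, with 95% Wilson intervals and colour by region, the dashed line at 30% and a cross for the 7 members with no listed site. The 3′UTR sites of GAPDH, PKM and TKT all lie below 2%, and the intron, coding and 5′UTR sites stand mostly near the top.

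The sites fell into sets that differed in depth. At 18 sites, 13 of them outside 3′UTRs, at least 30% of the tags had the deletion, and these sites had only 7 to 56 tags. At the other 85 sites, 83 of them in 3′UTRs, there were 123 to 52774 tags and under 30% carried the deletion. No member site with over 56 tags reached 30%. In 9 of the shallow sites every tag was deleted, and a percentage of 100 rests on as few as 7 tags, with a Wilson interval down to 64.6%. No site of the whole list had fewer than 7 deletions, so a site with few tags could be listed only at a high percentage. The intervals do not cover this selection, and its part in the split by depth was not tested. Percentages are therefore comparable only between sites of similar depth, and even within 3′UTRs the 45 sites under 1% all had at least 5718 tags. Other protein-coding genes showed the same kind of split, with a median of 16 tags at their sites of 30% or more.

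**Figure D2:**
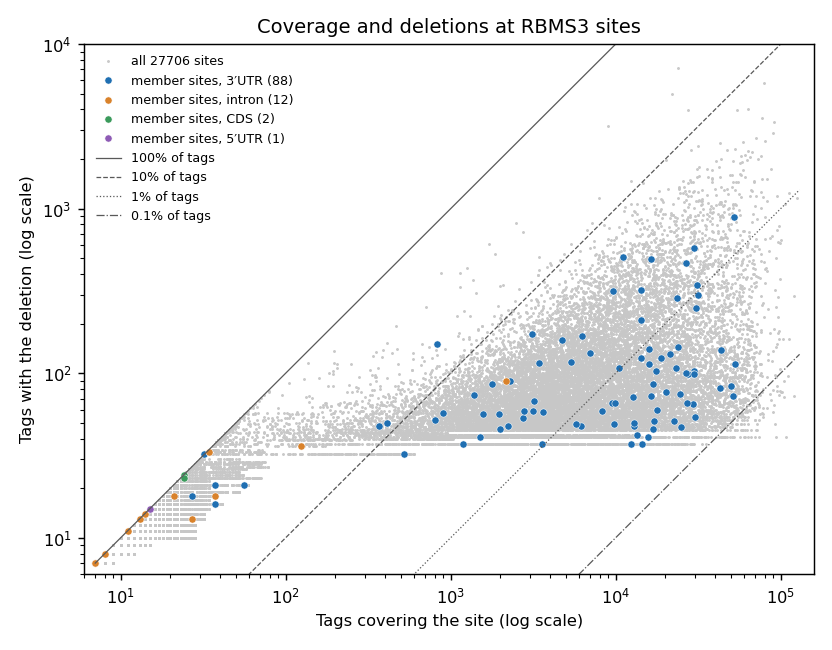
Tags with the deletion against tags covering the site (both log scales) for all 27706 sites in grey and the 103 member sites in colour by region, with diagonal lines at 100, 10, 1 and 0.1% of tags. The coloured 3′UTR sites lie mostly at 365 tags or more with the deletion in under 10%, and the intron, coding and 5′UTR sites lie mostly at under 60 tags near the 100% line.

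Hexokinase phosphorylates glucose on entry to the cell, and of its widespread forms HK1 carried sites and HK2 carried none. The leading HK1 site lay 15 nt before the end of the canonical transcript and was deleted in 509 of 11070 tags, or 4.60% (4.22 to 5.00%), in a run of 3 T with neither form of the poly(A) signal nearby. The other HK1 sites were shallow, with 32 of 32 tags deleted at a second 3′UTR position 455 nt before that end and 11 of 11 tags in an intron. The HK2 3′UTR of 2418 nt ends with AATAAA in its last 50 nt and is 80% A or T over its last 100 nt, so a signal and A/T-rich bases were present in a member without a site.

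GPI, which turns glucose 6-phosphate into fructose 6-phosphate, had sites at a pair of annotated ends. At the canonical end the T run before AATAAA was deleted in 172 of 3101 tags, or 5.55% (4.8 to 6.41%), and a T run after it in 68 of 3180 tags, or 2.14% (1.69 to 2.70%). At the earlier end, 2108 nt upstream, a G just before AATAAA was deleted in 48 of 6180 tags, or 0.777% (0.586 to 1.03%). The earlier end thus had more tags and a lower percentage, and its interval did not overlap either of the others. A lone G is here set beside runs of 4 T at fewer tags, so the percentages of the ends are not comparable.

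Phosphofructokinase commits the sugar to glycolysis, and of its 3 genes PFKM (the muscle form) and PFKP (the platelet form) carried sites while PFKL (the liver form) carried none. PFKM had its leading site at the A pair that opens AATAAA, with 169 of 6208 tags, or 2.72% (2.35 to 3.16%), 7 nt before the next annotated end and 323 nt before the canonical end. A run of 4 T 31 nt upstream had 56 of 1950 tags, or 2.87% (2.22 to 3.71%), which cannot be told from the leading percentage at these depths, and an intron site had 13 of 13 tags. PFKP had 315 of 9633 tags, or 3.27% (2.93 to 3.64%), in a T run 8 nt after the start of ATTAAA, then 66 of 9520 tags (0.693%) at a C next to it. A shallow PFKP site 146 nt before the canonical end had 21 of 56 tags.

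The bifunctional enzymes that set fructose 2,6-bisphosphate, the main activator of phosphofructokinase, were bound in PFKFB2 and PFKFB3 and not in PFKFB4. PFKFB2 had a single site, 28 nt before its canonical end in the A run of the signal, with 52 of 799 tags or 6.51% (5.00 to 8.43%), at fewer tags than most leading sites. PFKFB3, a form induced by low oxygen and growth signals, had 3 sites in the last 49 nt of its canonical 3′UTR. They stood at 74 of 1376 tags (5.38%, 4.30 to 6.70%), 41 of 1511 tags (2.71%, 2.01 to 3.66%) and, on the signal itself, 90 of 2296 tags (3.92%, 3.2 to 4.79%). The first of these had the higher percentage and the last had more deletions, and their intervals overlap.

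Among the triose and lower steps, fructose bisphosphate aldolase was bound in ALDOA and had no site in ALDOC, the brain form. ALDOA had 49 of 5718 tags or 0.857% (0.649 to 1.13%), and a second 3′UTR site with 37 of 12369 tags or 0.299%. A coding site in ALDOA had 24 of 24 tags. Each ALDOA site, this one included, also lies in the 3′UTR of a gene without a symbol on the same strand, and which gene gave the tags was not tested. TPI1, which interconverts the triose phosphates, had 59 of 3156 tags or 1.87% (1.45 to 2.40%) at a T run 46 nt before its canonical end, with a run of 13 A within 60 nt downstream, and 48 of 12830 tags or 0.374% at a C run 149 nt before that end. Such a run was the longest among the member sites, and a run of at least 6 A stood in that stretch at 3 of the 23 leading sites, those of TPI1, PGK1 and PGAM1. Over all 3′UTR sites, a run of at least 6 A stood there at 9.09% in members and 12.3% in other protein-coding genes.

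GAPDH had 7 sites, all within 50 nt of its canonical end and all at great depth, between 29978 and 52774 tags. The A pair that opens the signal had the deletion in 886 of 52244 tags, or 1.70% (1.59 to 1.81%). The other 6 sites had 73 to 138 deletions, or 0.142 to 0.344% of tags. Among them were the T of the same signal at 73 of 51534 tags (0.142%, 0.113 to 0.178%) and a C 5 nt before it at 114 of 52774 tags (0.216%, 0.180 to 0.259%). The remaining positions were 103 of 29978 tags (0.344%) at a G run, 138 of 43406 (0.318%) at a T, 84 of 50050 (0.168%) at an A and 81 of 43068 (0.188%) at a T after the signal. The deletion rate at the signal's first bases thus stood above that of neighbours covered by about the same tags, and no interval of a neighbour reached it.

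PGK1, phosphoglycerate kinase, had the most sites of any member, with 20 in its 3′UTR of 3465 nt and 6 in introns. Annotated transcripts of PGK1 end 437, 1119 and 3465 nt after the stop codon, and the 3′UTR clusters lay at each of these ends and at 2 places between them. At the first end 8 sites spanned nt 373 to 432, with 3557 to 31616 tags. The leading one of these, at the A pair that opens AATAAA, had 297 of 31616 tags or 0.939% (0.839 to 1.05%). The others had 37 of 3557 tags (1.04%), 42 of 13404 (0.313%), 65 of 29501 (0.220%), 99 of 29387 (0.337%), 54 of 30342 (0.178%), 99 of 27226 (0.364%) and 144 of 23938 (0.602%).

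The leading PGK1 site was in another cluster, at nt 985, in 3 T right after an ATTAAA that starts at nt 979. It had 493 of 16456 tags, or 3.0% (2.75 to 3.27%). The 0.939% at the first end was lower with intervals that do not overlap, but that site had 31616 tags and lay in a run of 2 A. The next annotated end was 134 nt downstream of nt 985. The other 6 sites of the cluster had 58 of 3645 tags (1.59%), 37 of 14319 (0.258%), 86 of 16910 (0.509%), 46 of 16713 (0.275%), 41 of 15676 (0.262%) and 59 of 8296 (0.711%). At the second end, which has its own ATTAAA at nt 1099, there were 107 of 10512 tags (1.02%, 0.843 to 1.23%) and 66 of 9825 tags (0.672%). The last end had 1 site, in ATTAAA, with 72 of 12723 tags or 0.566% (0.450 to 0.712%). A further AATAAA at nt 1677 had no site, and a shallow pair between the first and second ends, at nt 578 and 584, had 16 and 21 of 37 tags.

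**Figure D3:**
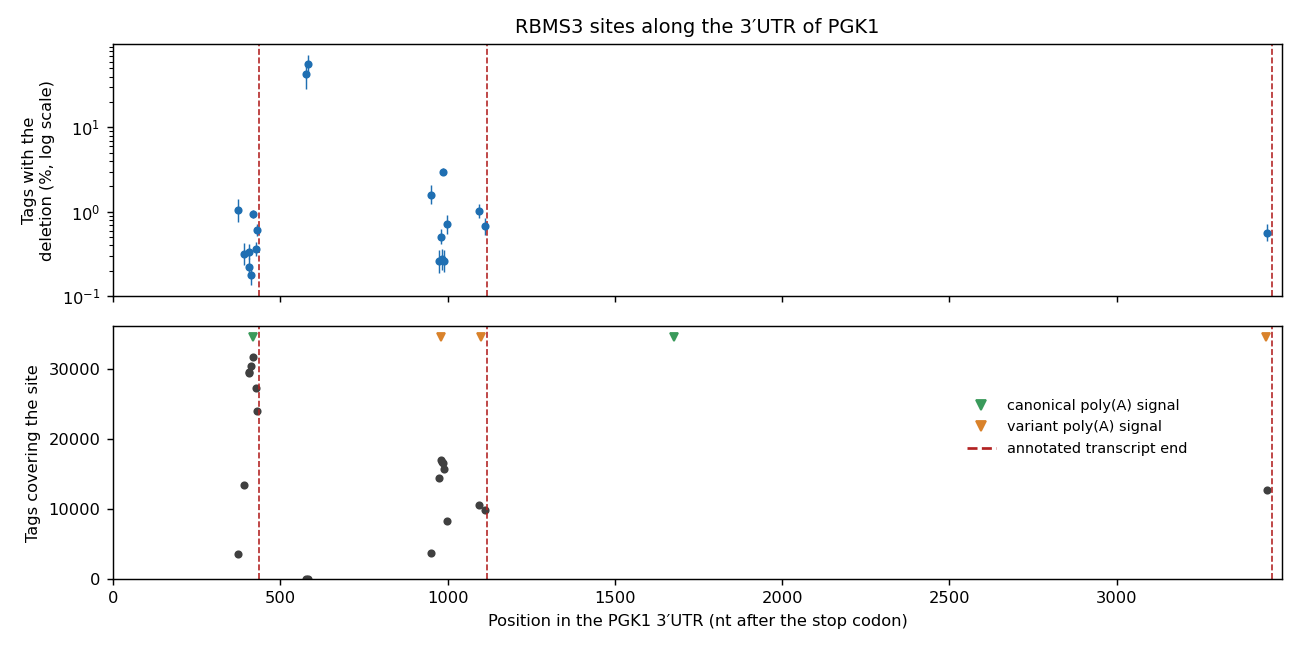
Sites along the PGK1 3′UTR (horizontal axis, nt after the stop codon), with the percentage of tags deleted above (log scale, 95% Wilson intervals) and the tags covering each site below, red dashed lines at annotated ends and triangles at canonical (AATAAA) and variant (ATTAAA) signals. Tags are highest at the first end (up to 31616) and the percentage of the deep sites is highest at nt 985 (3.0%), beside a variant signal 134 nt from an annotated end.

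The 6 PGK1 intron sites need a caveat about the annotation. A PGK1 transcript in GENCODE reaches across ATP7A, a copper transporter gene on the same strand, and 5 of the 6 lie inside ATP7A. The deepest had 89 of 2153 tags (4.13%) 24 nt from an annotated ATP7A end, and another had 36 of 123 tags (29.3%) 44 nt from one. The other 3 in ATP7A had 13 of 27, 33 of 34 and 18 of 21 tags. The sixth, outside it, had 18 of 37 tags. Those inside ATP7A lay in its 3′UTR or, for the site with 27 tags, in a noncoding exon. In PGK1 the same sites were intronic and 63473 to 102145 nt from the next annotated end. They were counted under PGK1 by the rule, and which gene gave the tags was not tested.

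PGAM1, phosphoglycerate mutase, had 1 site with 56 of 1565 tags or 3.58% (2.77 to 4.62%), in a run of 4 T just before an ATTAAA and 361 nt before the next annotated end. Enolase differed between its genes. ENO1, the widespread form, had 320 of 14278 tags or 2.24% (2.01 to 2.50%) in the 4 T before AATAAA, and within 50 nt of the canonical end also 50 of 12939 tags (0.386%) at a G, 113 of 15979 (0.707%) at an A of the signal and 140 of 15941 (0.878%) at the T of the signal. ENO2, the neuronal form, had no 3′UTR site, and its single listed site, 14 of 14 tags in an intron, lies inside LRRC23 on an AATAAA 18 nt from an annotated end of that neighbour.

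PKM, pyruvate kinase, had 5 sites in the last 49 nt of its 3′UTR with 17126 to 26921 tags. The leading site, at the A pair that opens AATAAA, had 287 of 23487 tags or 1.22% (1.09 to 1.37%). The others had 108 of 23064 tags (0.468%), 47 of 24941 (0.188%), 66 of 26921 (0.245%) and 51 of 17126 (0.298%), so PKM like GAPDH had its highest rate on the signal. A pair of PKM intron sites had 8 of 8 and 7 of 7 tags.

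Lactate dehydrogenase, which turns pyruvate into lactate and back, was bound in both LDHA and LDHB. LDHA had its deep sites 616 to 663 nt before its canonical end, next to an annotated end with an AATAAA. There the leading site had 342 of 31181 tags or 1.10% (0.987 to 1.22%) at an A pair, and its neighbours had 124 of 14177 tags (0.875%, 0.734 to 1.04%) and 77 of 20231 (0.381%). A separate LDHA site farther upstream had fewer tags and a higher percentage, 48 of 365 or 13.2% (10.1 to 17.0%).

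LDHB had all 7 of its 3′UTR sites in the last 51 nt before its canonical end. The site with the most deletions had 211 of 14273 tags or 1.48% (1.29 to 1.69%), 8 nt before the end. The farthest upstream had 133 of 7012 tags or 1.90% (1.60 to 2.24%), with an interval that overlaps the leading one. The 5 between them ran from 0.337 to 0.659%: 49 of 9686 tags (0.506%), 123 of 18669 (0.659%), 60 of 17824 (0.337%), 103 of 17494 (0.589%) and 73 of 16362 (0.446%). In the LDHB coding sequence 23 of 24 tags were deleted at 1 site. The LDHB sites also lie inside a gene without a symbol on the same strand, and which gene gave the tags was not tested.

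Pyruvate dehydrogenase turns pyruvate into acetyl-CoA in mitochondria, and PDHA1 and PDHB, the members that encode its first component, were bound. PDHA1 had 86 of 1775 tags or 4.85% (3.94 to 5.95%) and 48 of 2213 tags or 2.17% (1.64 to 2.86%) at an early end about an ATTAAA, 1911 and 1880 nt before the canonical end. Close to the canonical end, at 108 nt, another PDHA1 site had 50 of 413 tags or 12.1% (9.30 to 15.6%) beside a match of the AUA motif. At PDHA1, as at LDHA, the site with fewer tags had the higher percentage.

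PDHB had 9 sites, and the number of tags fell across an annotated end 62 nt before the canonical one. At and just before that end, about an ATTAAA, the sites had 130 of 21352 tags (0.609%), 75 of 24463 (0.307%) and 51 of 22419 (0.227%). After it, 45 to 9 nt before the canonical end, they had 53 of 2755 tags (1.92%), 59 of 2786 (2.12%), 115 of 3423 (3.36%), 117 of 5352 (2.19%) and, as the leading site, 159 of 4727 (3.36%, 2.89 to 3.92%). The 5 sites after the early end thus had higher percentages than the 3 deep ones at it, at depths too unlike for the percentages to be compared. A further PDHB site farther upstream, 401 nt before the canonical end, had the highest PDHB percentage at the fewest tags, with 151 of 830 tags or 18.2% (15.7 to 21%).

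**Figure D4:**
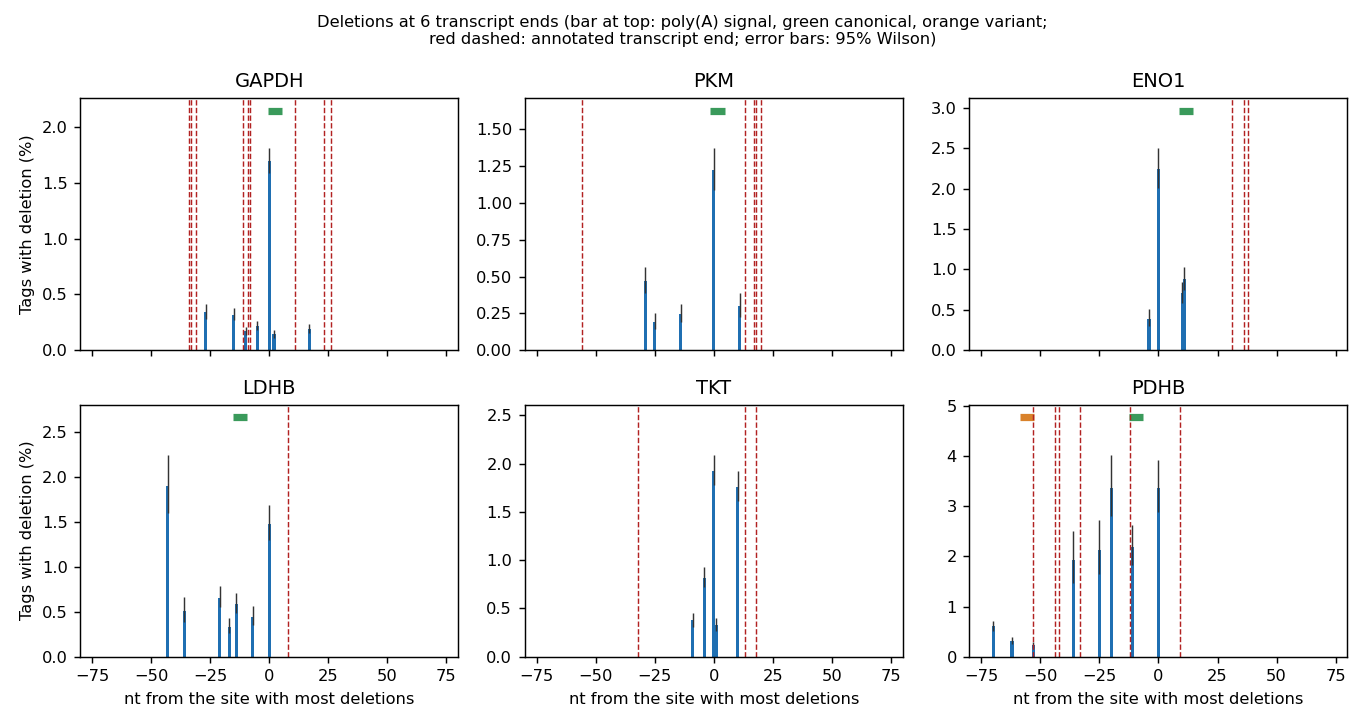
Percentage of tags deleted (bars from 0, 95% Wilson intervals) at sites within 80 nt of the leading site in GAPDH, PKM, ENO1, LDHB, TKT and PDHB, against the distance in nt along the transcript, with annotated ends as red dashed lines and poly(A) signals as bars at the top. In GAPDH and PKM the tallest bar (1.70 and 1.22%) stands on the signal, in ENO1 it stands before it, and TKT has no signal in the range drawn.

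The kinases that switch pyruvate dehydrogenase off were bound in PDK1 alone, with no site in PDK2 or PDK3. PDK1, a target of the hypoxia response, had 1 intron site with 7 of 7 tags and 1 site in its 3′UTR, with 32 of 519 tags or 6.17% (4.40 to 8.57%). That 3′UTR is the longest of the 23 at 12700 nt and holds 23 matches of the AUA motif apart from AATAAA. The only site in it lay 9854 nt before its end and 322 nt before the next annotated end. Its window held such an AUA match, AAATATA, and an AATAAA that starts 15 nt before the listed base.

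In the pentose phosphate pathway the oxidative step was bound in PGD, 6-phosphogluconate dehydrogenase, with 46 of 1986 tags or 2.32% (1.74 to 3.08%) 32 nt before its canonical end and 10 nt before an ATTAAA. PGLS, the lactonase before it, had no site. RPIA, ribose 5-phosphate isomerase, had 57 of 895 tags or 6.37% (4.95 to 8.16%) in a T run 40 nt before its end with no signal within 25 nt. RPE, the epimerase that works beside it, had only a shallow site with 18 of 27 tags (66.7%, 47.8 to 81.4%), which makes it the only one of the 23 members with no 3′UTR site under 30%. TALDO1, transaldolase, had 37 of 1186 tags or 3.12% (2.27 to 4.27%) in a run of 4 T 32 nt before its canonical end.

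TKT, transketolase, which links the pentose pathway back to glycolysis, had the most deletions of the pentose group. Its 5 deep sites lay 3 to 22 nt before an annotated end that is some way inside the canonical 3′UTR, 948 to 967 nt before its end. They had 577 of 29944 tags or 1.93% (1.78 to 2.09%) on the A run of the AUA motif match, 469 of 26637 or 1.76% (1.61 to 1.93%) on a run of 4 T after it, 249 of 30465 (0.817%) on a run of 4 G before it, 100 of 26555 (0.377%) and 99 of 29924 (0.331%). All 5 windows hold the same match, AAATATA, and none holds AATAAA or ATTAAA. A TKT site in the 5′UTR had 15 of 15 tags.

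Distances were measured downstream, to the next annotated end of any transcript of the gene. Of the 88 member sites in 3′UTRs 81.8% (72.5 to 88.5%) lay within 100 nt of an annotated end, against 69.0% of 21128 sites in other protein-coding genes, with a median of 24 nt (17 to 29 nt) against 34 nt. The contrast depended on the ends taken: with the canonical transcript alone the member share was 53.4% (43.1 to 63.5%) against 50% elsewhere (medians of 56.5 and 100 nt), and with transcripts of protein-coding type alone it was 71.6% (61.4 to 80%) against 63.7%. The shares elsewhere leave out sites with no such end downstream and so rest on 20292 and 21050 sites, while all 88 member sites were kept. For the leading sites, 19 of 23 were within 100 nt of some annotated end and 15 of 23 within 100 nt of the canonical end. The leading sites of other genes were not counted in this way, so these counts have no share beside them. Those near an end that is not the canonical one were PFKM, LDHA, PDHA1 and TKT, and those with no annotated end in the 100 nt downstream were PGK1, PGAM1, PDK1 and RPE. The library was primed with oligo(dT) after a tail was added to the RNA, so RNA that already ends in poly(A) can enter the library in the same way, and the part of this in the tags near ends was not tested.

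**Figure D5:**
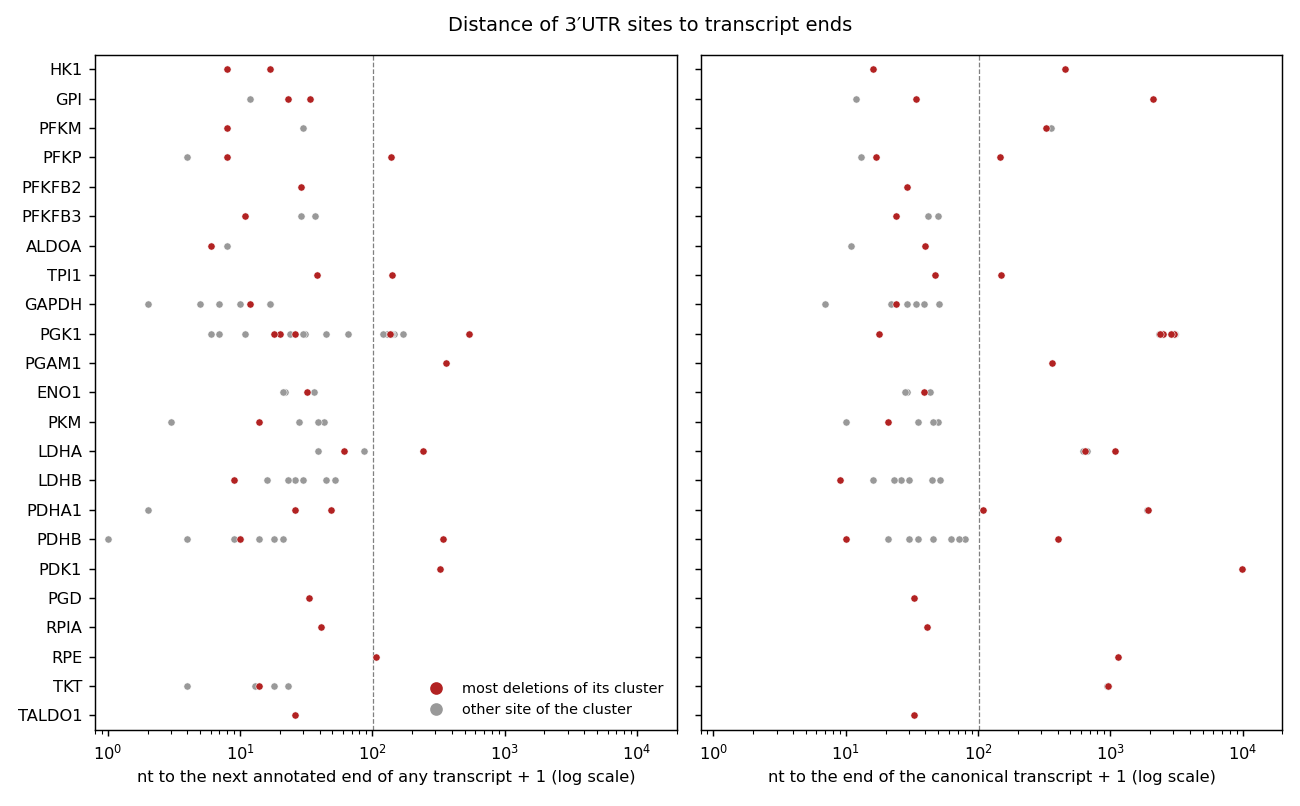
Distance of each 3′UTR site to the next annotated end of any transcript downstream (left) and to the end of the canonical transcript (right), in nt plus 1 on a log scale, for the 23 members with a 3′UTR site, with the leading site of each cluster in red, the other sites in grey and a dashed line at 100 nt. Most points lie left of the line in the left panel. In the right panel PFKM, PGAM1, LDHA, PDHA1, PDK1, RPE, TKT and most of PGK1 lie right of it. Some points of HK1, GPI, PFKP, TPI1 and PDHB do so as well.

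The poly(A) signal was near most sites. A window of 51 nt held AATAAA or ATTAAA on the transcript strand at 69.3% (59.0 to 78.0%) of the member sites in 3′UTRs, against 65.4% in other protein-coding genes, and AATAAA at 45.5% (35.5 to 55.8%) against 52.7%. Of the 23 leading sites, 11 had AATAAA, 6 had ATTAAA alone and 6 had neither, and the same was not counted for the leading sites of other genes. The listed base fell inside the signal at 14 sites of 8 members (GAPDH, PFKM, PFKFB3, PGK1, ENO1, PKM, LDHB and PDHB), or 15.9% (9.72 to 24.9%), against 10.7% elsewhere, where the interval of the member share still takes in the other value. These counts depend on strand, since a run of A that leads into the signal is listed at its downstream base on the minus strand only. The A runs of ENO1 and LDHB thus count as inside, and that of PFKFB2, on the plus strand, does not. Of the members with AATAAA in the last 50 nt of the canonical 3′UTR, 14 of 19 had a 3′UTR site. The same held for 5 of 7 with ATTAAA alone and 4 of 5 with neither. Over all protein-coding genes these shares were 34.6, 34.7 and 25%. The member classes are small and leave out signals at other ends, such as the ATTAAA at the early end of PDHA1.

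The AUA motif, which was matched on the transcript strand and which AATAAA itself completes whenever any base but C stands before it, was found in the windows of 37.5% (28.1 to 47.9%) of member 3′UTR sites, against 51.8% in other protein-coding genes. Without the 20 sites of PGK1, an alternative chosen after seeing the data, the member share was 47.1%. Without matches that hold AATAAA the shares were 17.0% (10.6 to 26.2%) and 15.5%. These 15 sites belonged to 7 members, and 5 of the 15 were the neighbouring TKT sites that share 1 match.

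The lost base was T at 15 of the 23 leading sites, 14 of them in a run of 3 or 4 T, A at 7 and G at 1. Counting the leading site of each of the 34 member clusters, T was lost at 58.8% (42.2 to 73.6%) and A at 29.4% (16.8 to 46.2%), against 74.4% and 15.2% at the leading sites of other protein-coding genes. The A deletions included those on the signals of GAPDH, PFKM, PFKFB3 and PGK1 printed above. Of the 20 clusters led by a T, 18 had it in a run of 3 or 4 T (90%, 69.9 to 97.2%), against 65.8% elsewhere. The share of T moved with the deletion percentage, being 42.2% at member 3′UTR sites under 1% and 67.4% at the rest, and 43.3 and 75.5% in other genes.

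Member sites in 3′UTRs were deeper than those of other protein-coding genes, with a median of 12884.5 tags (8296 to 16362) against 4919.5, while the deletions were close, with medians of 73 (59 to 99) and 64. The median percentage was accordingly lower, 0.909% (0.659 to 1.87%) against 1.96%, and 51.1% (40.9 to 61.3%) of member sites were under 1%, against 30.9%. The share of sites in 3′UTRs was 85.4% (77.4 to 91%), against 84.7%. Sites within 1 gene share its tags, and GAPDH, PGK1, PKM, TKT and LDHA alone gave 29 of the 45 member sites under 1%.

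The 7 members without a site were HK2, PFKL, PFKFB4, ALDOC, PDK2, PDK3 and PGLS, and for each but PGLS another gene of the same enzyme step was bound. Their canonical 3′UTRs, with that of ENO2, had a median of 704 nt (207 to 2418), close to the 762 nt (167 to 12700) of the 23 members with a 3′UTR site. The last 100 nt were 50% A or T in the median (40 to 80%) in these 8 and 64% (44 to 78%) in the 23, and in other protein-coding genes 64% without and 69% with a 3′UTR site. A missing site says only that none passed the authors' threshold at the depth reached there, and tags at positions that were not listed are not in the file.

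Of 50 further genes of the same pathways, 20 had a 3′UTR site, or 40% (27.6 to 53.8%), and 30 had no site of any kind. In 14, or 28% (17.5 to 41.7%), the site had at least 50 deletions. Both intervals take in the shares of all protein-coding genes given above, 31.8 and 23.6%. The other parts of the pyruvate dehydrogenase complex were among the bound ones, with 143 of 5876 tags (2.43%) at the leading site of DLAT, 73 of 8241 (0.886%) in DLD and 301 of 11447 (2.63%) in PDHX. The phosphatases that switch it on were bound as well, with 531 of 12044 tags (4.41%) in PDP1 and 133 of 2594 (5.13%) in PDP2. Among tissue-restricted isozymes, PGK2, PGAM2, PKLR, LDHC and PDHA2 had no site, and ENO3 had only 25 of 30 tags.

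Several members have processed copies elsewhere in the genome, which can take or lose reads in alignment. GENCODE names 115 pseudogenes for 15 of the members, and 1 of them, PGAM1P5, contained sites, all on the opposite strand in the 3′UTR of NTN4. How reads that match a member and its copies equally were treated is not given in the sources used here, so the counts at GAPDH, PGAM1, LDHB and the other members with copies carry that uncertainty. On the opposite strand of the members themselves there were 3 sites, 1 each in PFKFB2, LDHB and RPE.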

How the data were processed

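Tags of 2 biological replicates of FLAG-RBMS3 CLIP were processed by the authors with the CLIP Tool Kit (version not given in the sources used here). The molecular identifiers were appended, reads were aligned to hg38 and collapsed to unique tags, replicates were pooled, and deletion sites were called and filtered at a false discovery rate of 10% and a fold change over 10, whose reference is not given in the sources used here. The deposited values are counts, the pooled tags that cover a site and those with the deletion, and are not normalized. Depth is given per site, since library totals were not analysed here. Replicate 2 was assigned to the line in its title.

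The deletion was taken as the centre of each 21-nt interval. Sites were placed on GENCODE release 44 in the order 3′UTR, 5′UTR, coding, noncoding exon, intron, over all transcripts of a gene. Sites within 50 nt formed a cluster led by the site with most deletions, and motifs were searched in 51-nt windows of the transcript strand. Percentages have 95% Wilson intervals, medians have order-statistic intervals, and no test was run, since there was 1 group and 1 pooled list. All 31 members are named, each bound one by its sites, with sequences for those with most deletions and for isozymes both bound; a few items under this rule are not reported here. Members, gene lists and measures were chosen with earlier results of these data known. Alternatives changed the deletion minimum, the percentage limit, clustering, the annotation, the windows and the motifs, and left out PGK1 or sites within other named protein-coding genes. In all, 20 member sites lay inside another protein-coding gene on the same strand. Those in genes without a symbol, among them the sites of ALDOA and LDHB, were kept in every alternative of this kind. Functions were tested on simulated data. The software was samtools 1.23.1 and Python 3.11.15 with matplotlib 3.10.9, numpy 2.4.6, pysam 0.24.0 and scipy 1.17.1.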

Additional observations from a re-analysis of the deposited data

How the results depend on the processing

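No paired analysis was possible because there was 1 group whose replicates were pooled in the deposited list, and for the same reason no replicate could be left out. Of 82 values recomputed under alternatives, 63 stayed within the interval of the reported value, or within 1.5 times of a count, among them every count of members with a site or with a 3′UTR site. The others moved, and beyond what each alternative changes by construction (fewer sites, other windows, fewer ends) the cause was not tested. With at least 50 deletions the 103 sites became 67, and 1 site per cluster left 48. A minimum of 20 deletions moved the 3′UTR share from 85.4% to 94.5%, a minimum of 50 to 98.5%, a limit of 30% deleted tags to 97.6% and keeping 1 site per cluster to 70.8%. The share within 100 nt of an end (81.8%) was 90.9% with at least 50 deletions, 53.4% with the canonical transcript alone, and, under alternatives chosen after seeing the data, 89.7% without PGK1 and 71.6% with ends of protein-coding transcripts alone. The median distance of 24 nt became 56.5 nt with the canonical transcript and 30 nt with protein-coding ends. The share with a poly(A) signal (69.3%) was 84.1% in windows of 50 nt on each side, 30.7% in windows of 10 nt and 45.5% for AATAAA alone. The AUA share (37.5%) was 15.9% in windows of 10 nt and 17.0% without matches that hold AATAAA. A deleted T was found at 56.3% of all member sites and at 31.2% of the 16 sites whose base differs from both neighbours. The median deletion percentage of all member sites, 1.70%, was 5.20% with 1 site per cluster, where the shallow sites weigh more.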
